A study of Mus musculus with 12 samples.

Results

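The complement genes described here are C1qa, C1qb, C1qc, C4b, C3, C3ar1 and C5ar1, taken by name from a table of 34745 genes, so 7 genes of 34745. They were measured by RNA sequencing of the medial prefrontal cortex (mPFC), a cortical area with a role in how pain is felt and valued, in wild-type male mice. In chronic constriction injury (CCI), a model of neuropathic pain, loose ligatures are tied around the sciatic nerve. The 12 libraries formed 3 groups of 4: the left hemisphere after CCI (labelled ipsilateral), the right hemisphere after CCI (labelled contralateral), and the mPFC of naive mice, which had no operation. All were taken on day 28, that is 4 weeks after the operation or after habituation. The labels used here give neither the ages of the mice nor the hemisphere of the naive samples. Libraries are called left 1 to 4, right 1 to 4 and naive 1 to 4 after the numbers in the labels. A left and a right library sharing a number were taken to be a single mouse's hemispheres, a reading that the labels leave unstated. Nothing in the labels says that the naive libraries came from separate animals, and p-values measure the spread between these libraries.

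Complement is a cascade of proteins that tags surfaces for uptake. In the classical pathway C1q, built from the A, B and C chains, binds a target and starts the cleavage of C4 and C2, which together cleave C3. Fragments of C3 stay on the surface and are read by receptors on phagocytes, while the released C3a and C5a act on the receptors encoded by C3ar1 and C5ar1. In the brain C1q is made mainly by microglia and C4 by astrocytes and neurons, and complement is known for its part in the removal of synapses.

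The 3 C1q genes lie side by side on the minus strand of chromosome 4 in GRCm38, within 18675 bases: C1qa at chr4:136895917-136898803, C1qc at chr4:136889804-136893065 and C1qb at chr4:136880129-136886187. Upstream sequence is shown for C1qb and C1qc, because their levels moved with those of C1qa across libraries, as given further on. Each line is the 250 bases before the RefSeq start on GRCm38.p6, minus strand, read 5′ to 3′ (chr4:136886201-136886450 for C1qb and chr4:136892915-136893164 for C1qc). Capitals mark ACTTCCT, the reverse complement of AGGAAGT, a core bound by ETS-family transcription factors.
C1qb: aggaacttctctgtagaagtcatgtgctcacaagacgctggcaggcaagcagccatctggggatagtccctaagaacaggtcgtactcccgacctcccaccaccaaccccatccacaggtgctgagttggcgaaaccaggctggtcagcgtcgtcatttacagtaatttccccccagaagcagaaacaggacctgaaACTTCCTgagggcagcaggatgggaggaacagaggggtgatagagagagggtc
C1qc: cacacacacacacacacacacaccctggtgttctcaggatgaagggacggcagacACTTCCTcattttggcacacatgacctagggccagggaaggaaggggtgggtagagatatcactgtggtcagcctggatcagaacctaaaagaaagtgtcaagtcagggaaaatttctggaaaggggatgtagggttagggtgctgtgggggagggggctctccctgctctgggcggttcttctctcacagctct
The match began 53 bases before the RefSeq start in C1qb and 195 bases before it in C1qc. For C1qc, C3ar1 and C5ar1 the RefSeq start lies inside the gene locus given in this text, so part of each window overlaps that locus. The C1qc match lies outside its locus. RefSeq windows were matched for 5 of the 7 genes, and AGGAAGT was searched on both strands. C5ar1 held 2 matches, 190 and 72 bases before its RefSeq start, both inside its locus, and the windows of C3 and C3ar1 held none. Of all 32851 promoter windows of this length, 7.69% held a match. The motif was chosen with the sequences in view, and a match is a description of the letters only.

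Total counts lay between 16.1 and 20.6 M (mega-counts) per library. Markers of the cortex were present, with 8 excitatory neuron genes summing to 4525 to 5594 CPM (counts scaled to a common library total). Right 1 stood apart: its striatum markers summed to 304.7 CPM, against 128.1 to 174.7 CPM in the other 11. In every comparison 0 genes passed at a Benjamini-Hochberg adjusted p of 0.05 in edgeR's quasi-likelihood test, so 0% of all tested genes were called, and 0 of the 7 complement genes were called. At an unadjusted p under 0.05 stood 597 genes right against naive, 763 left against naive, 1322 right against left and 679 between CCI and naive mice. DESeq2 called 3, 9, 0 and 31 genes in these comparisons and limma voom 0 in each, and neither called any of the 7. All 7 were among the 15808 genes that passed the filter on low counts.

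The C1q genes stood far above the rest of the group. On the per-length scale (FPKM, mean ± SD over 12 libraries), the level was 33.3 ± 5.55 for C1qa, 31.4 ± 4.08 for C1qb and 14.1 ± 1.91 for C1qc. C4b followed at 1.97 ± 0.816, then C3ar1 at 0.465 ± 0.0993, C3 at 0.130 ± 0.0342 and C5ar1 at 0.111 ± 0.0437. C1qa was above 94.97% of the 23254 genes with any count, C4b above 55.81% and C5ar1 above 27.41%. Neighbours in this order overlapped at both ends: the FPKM ratio of C1qb to C1qa ran from 0.814 to 1.07, and the ranges of C3 (0.0788 to 0.217) and C5ar1 (0.0238 to 0.178) crossed. The FPKM ratio of C1qc to C1qa stayed between 0.383 and 0.521 in the 12 libraries.

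**Figure D1:**
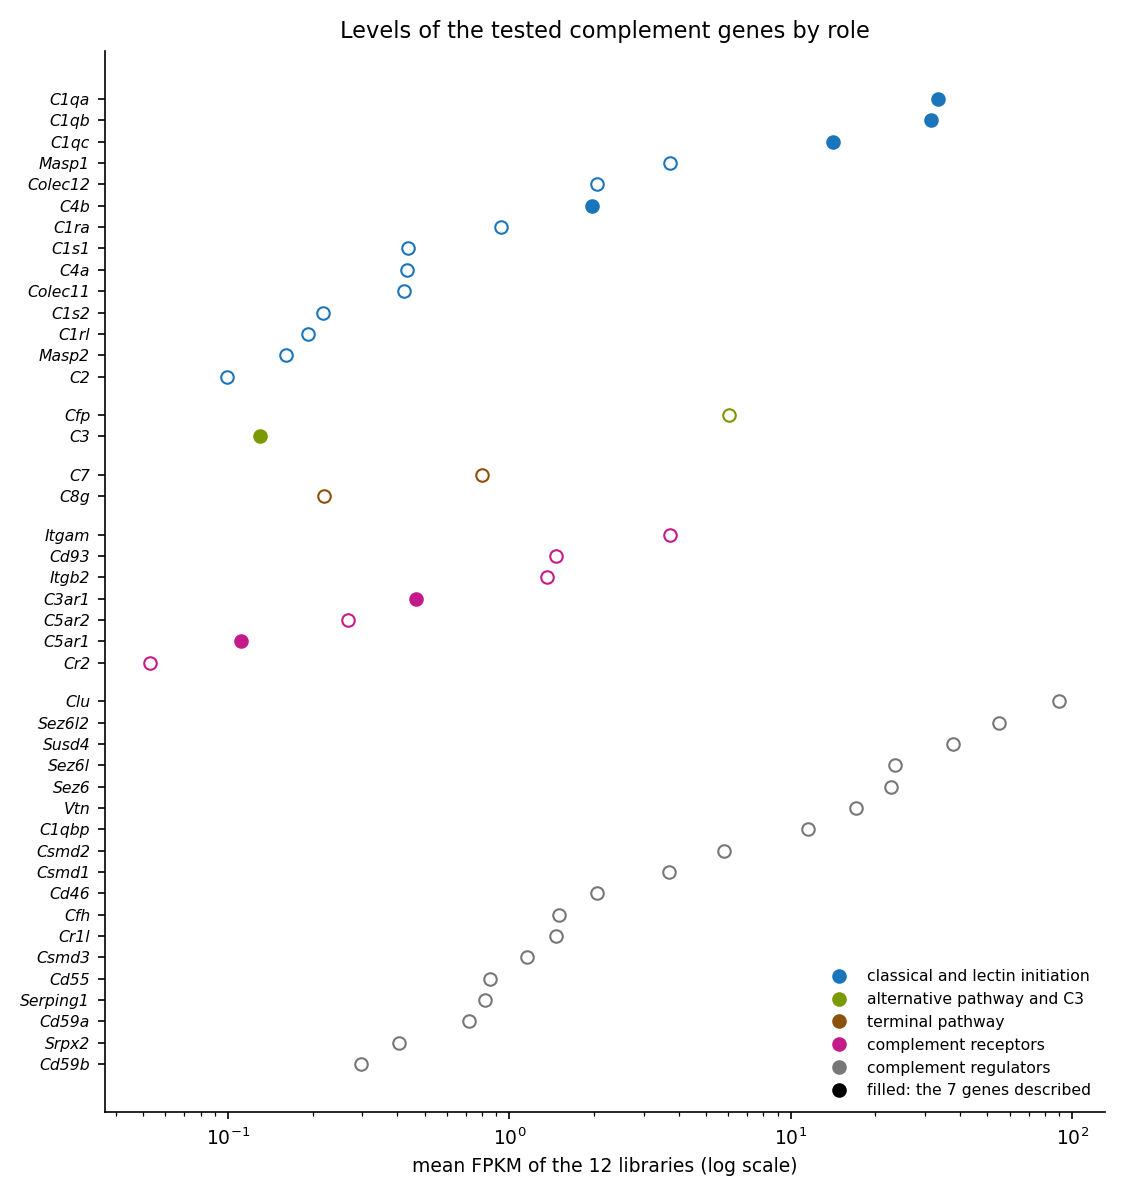
Mean FPKM over 12 libraries, on a log axis, of the tested complement pathway genes by role; filled points are the 7 genes described here and open points the others. C1qa (33.3) and C1qb (31.4) lie well to the right of C3 (0.130) and C5ar1 (0.111).

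C1qa (ENSMUSG00000036887) encodes the A chain of C1q. Its level in CPM was 33.8, 41.3, 30.1 and 34.9 in naive 1 to 4, and 30.4, 31.5, 33.3 and 30.0 in left 1 to 4. It was 34.8, 28.2, 40.6 and 46.9 CPM in right 1 to 4. Right 4 was the highest and right 2 the lowest of the 12 libraries, so the right group spanned both others. Right against left, the log2 fold change was 0.27 (SE 0.13, 95% interval -0.02 to 0.56, edgeR adjusted p = 0.610). It was 0.13 without mouse 4 and stood at 0.39 without right 2 (edgeR adjusted p = 0.0893).

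C1qb (ENSMUSG00000036905) encodes the B chain. Its level was 32.6, 41.4, 32.7 and 38.9 CPM in naive 1 to 4, against 32.0, 30.3, 31.3 and 30.0 CPM in left 1 to 4. In right 1 to 4 it was 33.5, 29.1, 38.4 and 39.9 CPM. All 4 left libraries lay below all 4 naive ones, with 32.0 CPM in left 1 next to 32.6 CPM in naive 1, while the right group overlapped both. C1qb was the only one of the 7 genes whose left and naive groups did not overlap, against 4.73% of all tested genes. Its log2 fold change, left against naive, was -0.24 (SE 0.10, 95% interval -0.46 to -0.02), with an unadjusted p of 0.0348 and an edgeR adjusted p of 0.972. An unadjusted p under 0.05 was reached by 1 of the 7 genes here, against 4.83% of all tested genes. Right against left C1qb was at 0.19 (edgeR adjusted p = 0.619), and at 0.13 without right 4.

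C1qc (ENSMUSG00000036896) encodes the C chain. It was at 30.8, 32.7, 30.1 and 27.7 CPM in naive 1 to 4 and at 26.5, 28.1, 26.9 and 26.7 CPM in left 1 to 4. In right 1 to 4 it was at 30.4, 30.4, 32.4 and 40.7 CPM. Every right library was above every left one, and right 4 stood above the other 3. No overlap between right and left was found for this 1 of the 7 genes, against 2.95% of all tested genes. The log2 fold change, right against left, was 0.31 (SE 0.09, 95% interval 0.12 to 0.50), with an unadjusted p of 0.00413 and an edgeR adjusted p of 0.592. Without mouse 4 it was 0.20 (edgeR adjusted p = 1.00), and without right 2 it was 0.36 (0.0729).

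The C1q genes were set beside microglia markers, since fewer cells of a type and less RNA per cell cannot be told apart in bulk tissue. The summed C1q level divided by the summed level of 18 microglia markers was 0.174 ± 0.0078 in naive, 0.163 ± 0.0021 in left and 0.168 ± 0.0038 in right libraries (SD, n = 4 each). The ratio ranged from 0.163 to 0.181 in naive, from 0.160 to 0.164 in left and from 0.163 to 0.172 in right libraries, so the right range lay within the naive one. Naive 1 had the ratio 0.163, and the other 3 naive libraries, at 0.175 to 0.181, lay above all 8 CCI libraries. The marker sum itself ran from 529.9 to 639.1 CPM in naive, 535.6 to 562.1 CPM in left and 536.8 to 740.8 CPM in right libraries, with no marker at 0. Right against left, 18 of 18 microglia markers had a positive log2 fold change (median 0.19), and 0 passed. The widest was Olfml3 at 0.39, which was at 9.06 CPM in left 2 and at 17.0 to 18.6 CPM in the other left libraries. Across the 12 libraries, which share tissue and preparation, Pearson's r of log2 CPM was 0.884 for C1qa with C1qb, 0.787 for C1qa with C1qc and 0.616 for C1qb with C1qc. The median r with the 18 microglia markers was 0.817, 0.648 and 0.664 for C1qa, C1qb and C1qc, and 0.194 to 0.302 for the other 4 genes.

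Markers of other cell types also differed between the groups, and their part in the C1q values was not tested. Blood cell genes summed to 41.9 to 61.9 CPM in naive, 37.5 to 41.3 CPM in left and 33.3 to 61.6 CPM in right libraries, and left against naive 5 of 5 had a negative fold change. C1qb was most alike to the haemoglobin gene Hbb-bs (r = 0.962 over 12 libraries), the endothelial junction gene Cldn5 (0.936) and the haemoglobin gene Hba-a1 (0.925). C1qa was most alike to Sdc4 (0.971), Fads1 (0.970) and Mpeg1 (0.969), a macrophage gene, and C1qc to Ednrb (0.906), Arhgap24 (0.906) and Kctd12b (0.903). Endothelial markers had a positive fold change right against left in 8 of 8 and a negative one left against naive in 8 of 8, and mural markers in 7 of 8 each time. Oligodendrocyte markers were positive right against left in 10 of 10, and also left against naive in 10 of 10. Left against naive the C1q genes were negative. The oligodendrocyte sum was 5468 CPM in right 2, 2431 CPM in right 4 and 2431 CPM in left 4. In these libraries the C1q sum was 87.7, 127.5 and 86.7 CPM. Excitatory and inhibitory neuron markers were negative right against left in 7 of 8 each. No marker of these lists passed. Border macrophage markers summed to 5.01 to 8.71 CPM in naive, 3.82 to 8.0 CPM in left and 4.69 to 12.1 CPM in right libraries. Right against left, 4 of 4 tested border macrophage markers were positive, the widest being Cd163 at 0.95, and Ms4a7 was at 0 in left 1 and right 2. The 8 neutrophil and monocyte markers summed to 0 to 0.849 CPM, and none was tested.

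**Figure D2:**
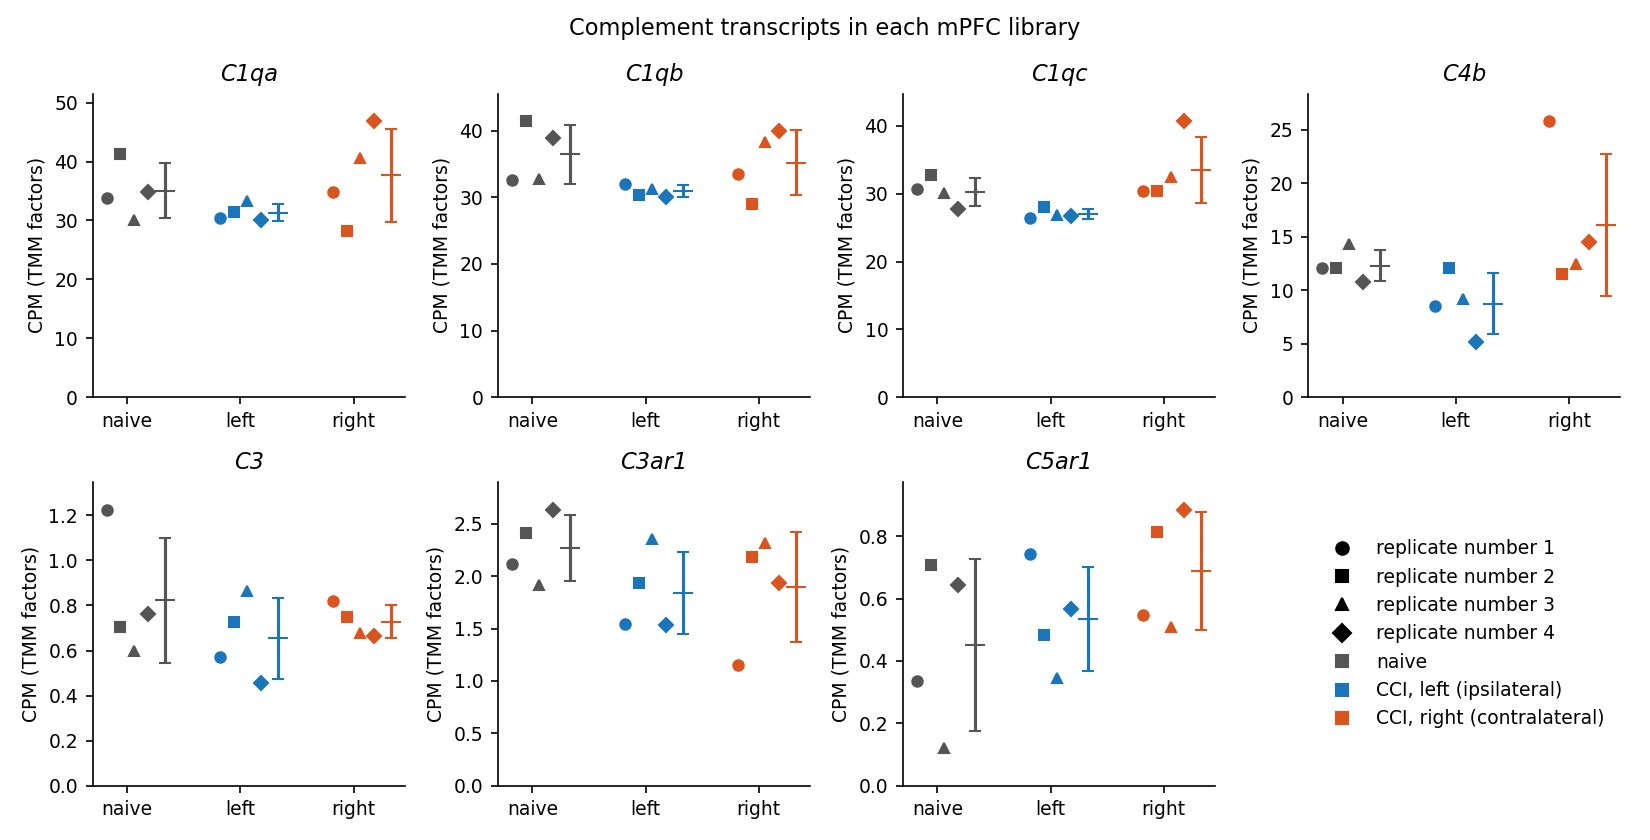
CPM of each complement gene in the 12 libraries (points, by replicate number) with the mean and SD of each group of 4 beside them. The left libraries of C1qb (30.0 to 32.0 CPM) lie below the naive ones, and right 1 stands out for C4b at 25.8 CPM.

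C4b (ENSMUSG00000073418; chr17:34728380-34743882, minus strand) encodes complement C4, which C1q-bound proteases cleave. Its level was 12, 12.1, 14.3 and 10.7 CPM in naive 1 to 4, and 8.56, 12.1, 9.14 and 5.11 CPM in left 1 to 4. In right 1 to 4 it was 25.8, 11.5, 12.4 and 14.6 CPM. Right 1 was the highest of all libraries and left 4 the lowest, and the right and left groups overlapped through right 2 and left 2. Right 1 was also the library that stood apart in striatum markers, at 304.7 CPM, and their part in its C4b level was not tested. The log2 fold change, right against left, was 0.88 (SE 0.29, 95% interval 0.25 to 1.5), with an unadjusted p of 0.0104 and an edgeR adjusted p of 0.592. Without right 1 it was 0.55 (edgeR adjusted p = 0.734), without mouse 1 it was 0.54, and without mouse 2 it was 1.22 (0.0739). Without right 1, C1qa, C1qb and C1qc stood at 0.30, 0.21 and 0.35 right against left, none of them called, and C3ar1 at 0.22 in place of 0.04.

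Gfap, the astrocyte filament gene, was the gene most alike to C4b of all tested genes, with r = 0.964 and Spearman's rho = 0.965 over the 12 libraries. Without left 4 and right 1, r was 0.877. Gm14964 (r = 0.942) and Tspan18 (0.938) came next. Gfap was at 52.8, 64.5, 55.0 and 50.1 CPM in naive 1 to 4, at 38.9, 54.8, 36.5 and 14.1 CPM in left 1 to 4, and at 118.6, 51, 61.8 and 64.8 CPM in right 1 to 4. As for C4b, right 1 was the highest and left 4 the lowest. Of the astrocyte markers, 12 of 12 were positive right against left (median 0.15), the widest being Gfap at 1.04 (edgeR adjusted p = 0.592). Without Slc1a2, which takes separate high and low levels among the libraries, the astrocyte sum was 1591 to 1829 CPM in naive, 1497 to 1611 CPM in left and 1507 to 2115 CPM in right libraries. Of the meningeal and fibroblast markers, 12 of 12 were positive right against left (median 0.67), and none of either list was at 0. They summed to 56.0 to 86.5, 35.9 to 64.7 and 30.4 to 93.4 CPM in the same order, the widest difference right against left being Slc13a4 at 1.32, although it was at 0.250 CPM in right 2 and 3.73 CPM in left 2. The part of these markers in the C4b values was not tested. C4b and its neighbour C4a share 35.2% of their 50-base words, so the split of reads between them is uncertain. C4a was at 0.433 FPKM.

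**Figure D3:**
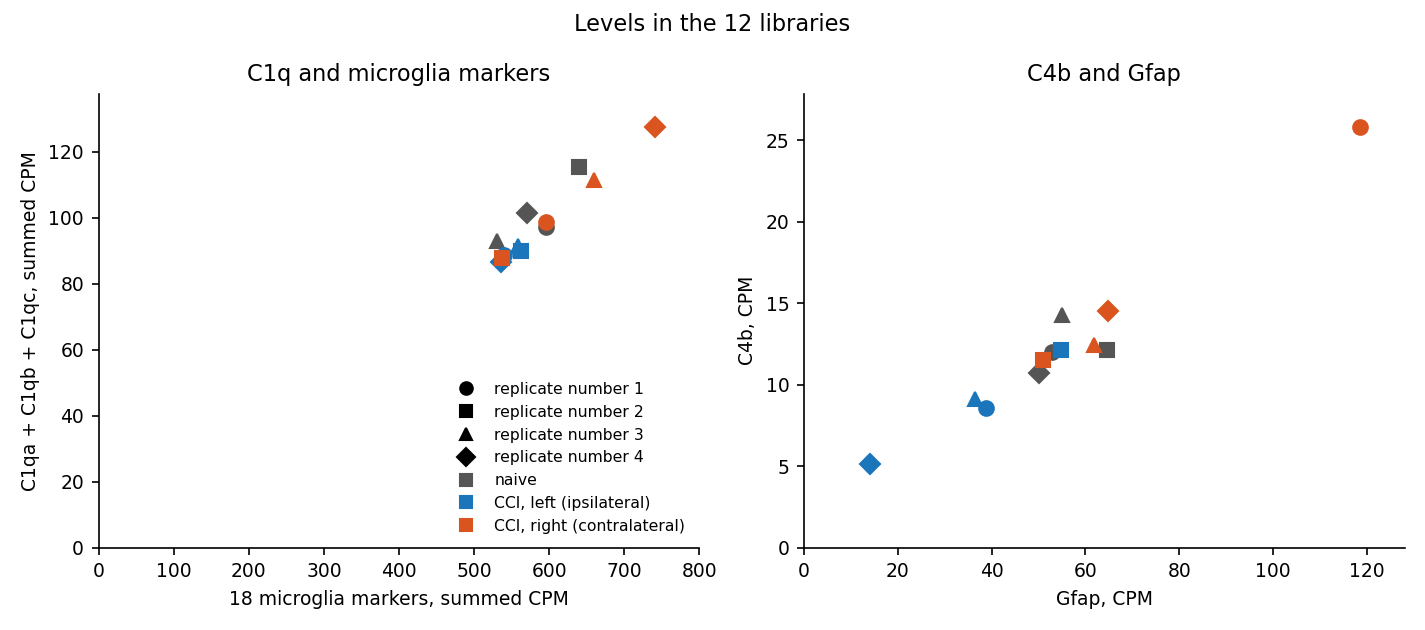
Left panel: summed CPM of the 3 C1q genes against the summed CPM of 18 microglia markers; right panel: C4b against Gfap, both in CPM, 1 point per library. C1q was higher in libraries with a higher marker sum, and right 1 (25.8 CPM of C4b, 118.6 CPM of Gfap) and left 4 (5.11 and 14.1 CPM) lie at the ends of the right panel.

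C3 (ENSMUSG00000024164; chr17:57203970-57228136, minus strand) encodes the protein on which all pathways meet. It was counted 8 to 22 times per library, at 1.23, 0.706, 0.597 and 0.761 CPM in naive 1 to 4. It was at 0.571, 0.727, 0.862 and 0.454 CPM in left 1 to 4 and at 0.822, 0.750, 0.679 and 0.664 CPM in right 1 to 4. Naive 1 was the highest library, and the 3 groups overlapped. The log2 fold change was -0.33 (95% interval -0.95 to 0.29) left against naive and 0.15 (-0.48 to 0.78) right against left. Both intervals were wide and included 0. The first fold change was -0.069 without naive 1, and the second 0.021 without left 4.

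C3ar1 (ENSMUSG00000040552; chr6:122847138-122856161, minus strand), the receptor of C3a, was counted 21 to 45 times per library. It was at 2.12, 2.41, 1.91 and 2.64 CPM in naive 1 to 4, at 1.54, 1.94, 2.36 and 1.53 CPM in left 1 to 4, and at 1.15, 2.19, 2.32 and 1.94 CPM in right 1 to 4. The groups overlapped, and right 1 was the lowest. The log2 fold change was -0.30 (95% interval -0.78 to 0.19) left against naive and -0.26 (-0.75 to 0.23) right against naive, the second being -0.079 without right 1. C5ar1 (ENSMUSG00000049130; chr7:16246743-16259540, minus strand), the receptor of C5a, was counted only 2 to 16 times. It was at 0.334, 0.706, 0.119 and 0.644 CPM in naive 1 to 4, at 0.742, 0.485, 0.345 and 0.568 CPM in left 1 to 4, and at 0.548, 0.812, 0.509 and 0.885 CPM in right 1 to 4. Its widest log2 fold change, right against naive, was 0.60 (SE 0.42, 95% interval -0.31 to 1.51). Without naive 3, which held 2 counts, it was 0.29.

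Right against left, all 7 log2 fold changes were positive, against 51.1% of all tested genes, with a median of 0.27 against 0.00 over all tested genes. C3ar1 was at only 0.04 and changed sign in 6 of 23 alternatives. The C1q genes moved together across libraries, so the 7 are not separate readings. An unadjusted p under 0.05 was reached by C1qc and C4b, 2 of the 7, against 8.36% of all tested genes. Within the mice, 5, 4, 5 and 7 of the 7 genes were higher on the right in mice 1 to 4, against 50.2%, 50.6%, 48.7% and 51.1% of all tested genes. C1qc was higher on the right in all 4 mice, by 0.20, 0.11, 0.27 and 0.61 on the log2 scale. Its right and left groups did not overlap, so any pairing of the libraries would give this direction, and it adds no separate evidence. C4b differed by 1.59, -0.08, 0.45 and 1.51, so mouse 2 was near 0. C1qa differed by 0.20, -0.16, 0.29 and 0.64.

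**Figure D4:**
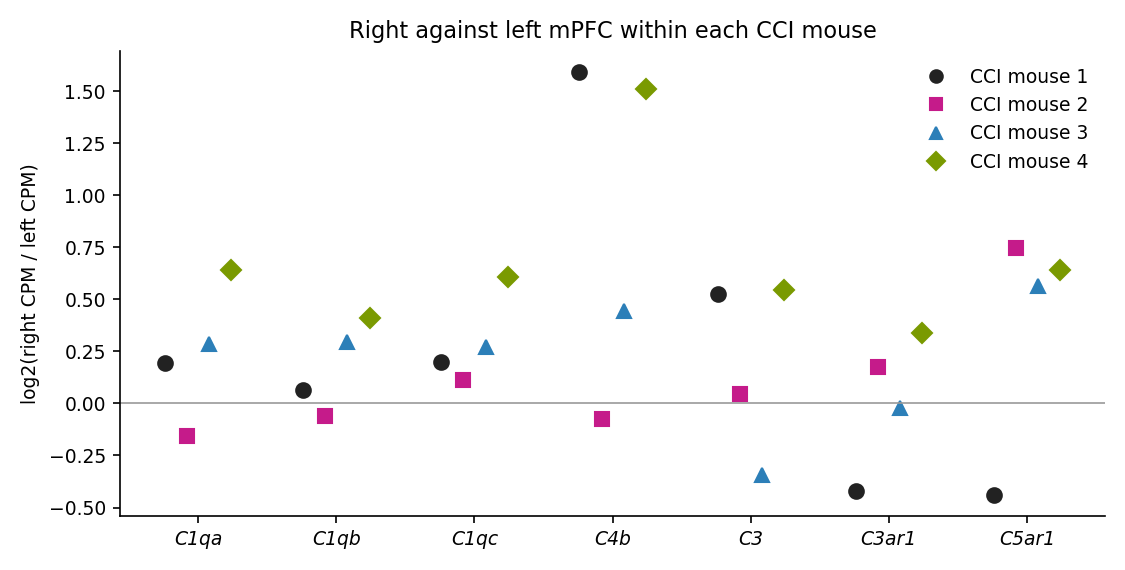
Log2 ratio of right to left CPM within each CCI mouse, 1 point per mouse and gene, with a line at 0. C1qc is above 0 in all 4 mice (0.11 to 0.61), which follows from its right and left groups not overlapping. C4b is near 0 in mouse 2 (-0.08) and at 1.59 and 1.51 in mice 1 and 4.

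The comparisons with naive share the naive libraries, so their values are given side by side and not as separate evidence. Left against naive, 6 of the 7 log2 fold changes were negative, against 50.1% of all tested genes, with a median of -0.24 against -0.00. Right against naive, 4 of the 7 were positive, against 50.1%, with a median of 0.10 against 0.00, and 0 of the 7 had an unadjusted p under 0.05, against 3.78%. Groups that did not overlap were found for 0 of the 7 there, against 2.2% of all tested genes. C4b was at -0.49 left and 0.39 right against naive. Single libraries carried much of both: without left 4 the first was -0.30, and without right 1 the second was 0.065. C1qc was at -0.16 left and 0.14 right against naive, and the second was 0.040 without right 4. C1qa was at -0.16 and 0.10, and these were -0.074 without naive 2 and -0.015 without right 4. With both hemispheres of each mouse summed, 5 of the 7 were negative against naive mice, against 49.7% of 16179 tested genes. In that comparison 0 of the 7 reached an unadjusted p under 0.05, against 4.2%, and 0 had groups that did not overlap, against 2.71%. C1qa was at -0.02 (95% interval -0.25 to 0.21), C1qc at -0.00 (-0.16 to 0.16) and C4b at 0.02 (-0.37 to 0.41). These intervals bound the differences between CCI and naive mice and do not show that they were equal.

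**Figure D5:**
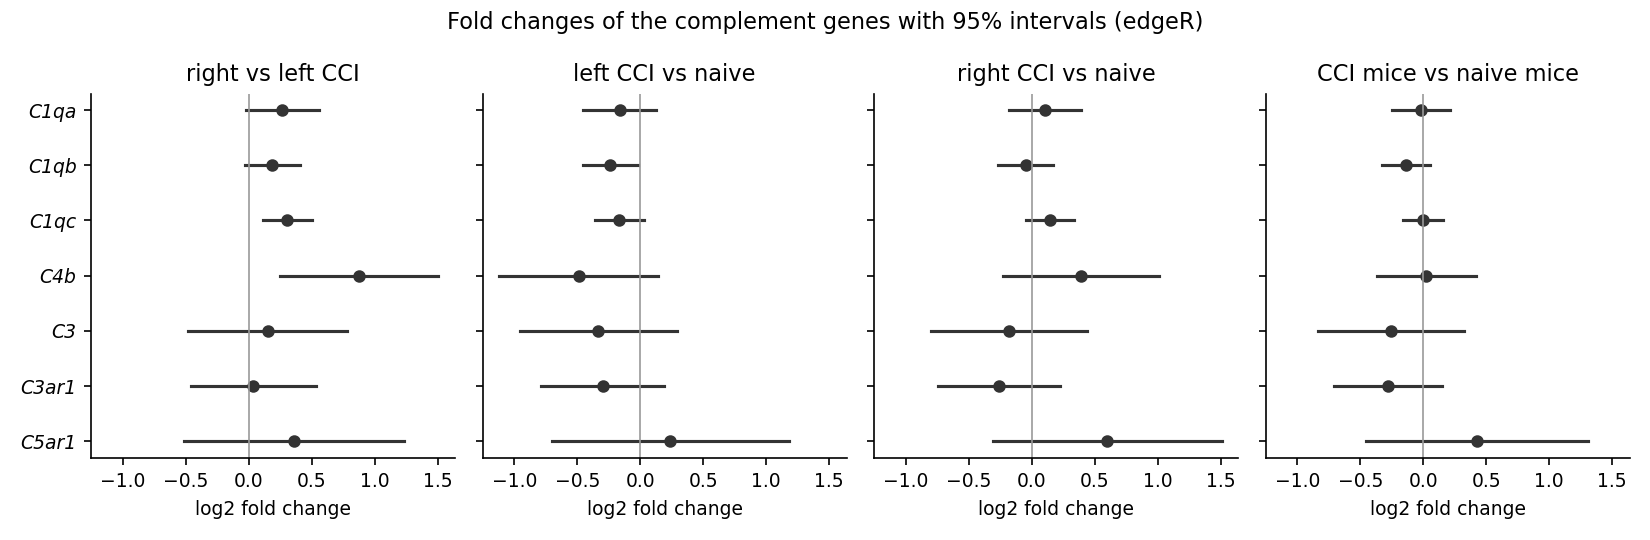
Log2 fold changes (points) with 95% intervals (lines) of the 7 genes in the 4 comparisons, from edgeR. Right against left all points are positive, with the intervals of C1qc (0.12 to 0.50) and C4b (0.25 to 1.5) above 0, and none passed after adjustment.

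Of 56 other complement genes in the table, 36 were tested and 0 passed in any comparison. At an unadjusted p under 0.05 in edgeR stood 1, 3, 2 and 2 of the 36 right against naive, left against naive, right against left and between mice. Of all tested genes it was 3.78%, 4.83%, 8.36% and 4.2%. Right against left, 18 were positive and 18 negative, with a median of -0.00. The highest levels were those of Clu (90.0 FPKM), the secreted chaperone clusterin, which limits the terminal complex, Sez6l2 (55.0), Susd4 (37.6), Sez6l (23.4) and Sez6 (22.7), all regulators or relatives of them. In the initiation list, 8 of 14 tested genes were positive right against left, the members included. Colec12, a scavenger receptor with a collectin domain, was at 0.40 there. Colec11, a soluble collectin, was at 0.99 left against naive (edgeR adjusted p = 0.972). It was counted only 3 to 22 times per library, and the 22 counts were in left 3. Cfp, which stabilises the C3 convertase of the alternative pathway, was at 0.27 right against left (unadjusted p = 0.0398).

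Among the receptors, 6 of 7 tested genes were positive right against left, against 51.1% of all tested genes, and 6 of 7 negative left against naive, against 50.1%. These 7 include C3ar1 and C5ar1, and both comparisons share the left libraries. Itgam, a subunit of complement receptor 3, was named after its values were seen: it was at 27.7 to 29.1 CPM in naive and 23.8 to 26.6 CPM in left libraries, which did not overlap, as for 4.73% of all tested genes, with a log2 fold change of -0.21 (edgeR adjusted p = 0.972). Its right libraries, at 19.1 to 34.2 CPM, spanned both groups. Its partner subunit Itgb2 was at 6.21 to 6.71 CPM in naive and 5.88 to 6.40 CPM in left libraries, which overlapped. Cr2, the receptor of C3d, was at 1.06 CPM or less in every library and at -1.12 right against naive (SE 0.44, unadjusted p = 0.0238, edgeR adjusted p = 1.00). Among the regulators, 8 of 18 tested genes were positive right against left. Clu was at 0.17 (edgeR unadjusted p = 0.0255). Left against naive, Srpx2, a C1q-binding protein of synapses, was at 0.70 on 16 to 48 counts per library. Cd59b, which blocks the membrane attack complex, was at 0.81 there, on only 4 to 21 counts. Right against naive, Cfp was at 0.20 and Cd59b at 0.53. Between CCI and naive mice the smallest p-values of the other complement genes were those of Cr2 (-0.91), Colec11 (0.78) and Srpx2 (0.50). Of the terminal pathway 2 of 7 genes were tested. C1rb, C9, Cd55b, Fcnb and Vsig4 had a count of 0 in all 12 libraries, which allows up to 0.0142 CPM over the 12 together (3 counts, counting error only).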

How the data were processed

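The authors deposited raw counts per gene and library, and FPKM beside them. Per the submitters' processing notes, HISAT2 2.0.4 and GRCm38/mm10 are named; for the counting program and the annotation release, the answer is not given in the sources used here. Per the labels, libraries were made from total RNA with an mRNA kit. Gene by gene, count divided by deposited FPKM differed between libraries by one factor per library. The largest relative departure was 4.45e-05 over 4008 genes, so FPKM served only for levels between genes. All sample columns were matched to libraries.

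Counts were tested in edgeR 4.0.16 (R 4.3.3) with TMM factors, filterByExpr and robust quasi-likelihood fits, two-sided, adjusted over all tested genes by Benjamini-Hochberg at 0.05. All 12 libraries entered one fit of 3 groups. A second fit summed the hemispheres of each CCI mouse, giving 8 mice. Levels in each library are CPM, scaled by TMM factors. The code was tested on simulated data. Similarity is Pearson's r of log2 CPM (prior count 2) and is given without a test.

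The 7 genes and all lists were chosen with earlier results of these data known. Named beside them were, per comparison, the 3 other complement genes of smallest p, the 5 of highest FPKM, the widest-moving marker of 4 cell type lists, and the 3 genes most alike to each of the 7, of which 1 is not reported here. Alternatives were RLE factors, no filter, DESeq2 1.42.0, limma 3.58.1 voom, fits of the compared groups alone, a replicate block and leaving out libraries. Deviations from the group means were nearly uncorrelated between same-numbered left and right libraries, with r of -0.137 to 0.0601. For right 1 to 4 the left library with the highest r was number 2, 1, 4 and 2, so the values do not show the pairing. The pairing of left and right rests on reading them as one mouse, and the naive numbers only share a number.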

Additional observations from a re-analysis of the deposited data

How the results depend on the processing

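None of the 7 genes was called under any alternative in which it was tested. C5ar1 had 21 alternatives right against left, where each of the others had 23. Left against naive it had 17, where each of the others had 18. Of 501 alternative log2 fold changes of the 7 genes, 476 kept their direction and their side of the threshold and 25 changed sign, each of them for a value near 0 or on few counts. Without filter on low counts C1qc was at 0.0036 between mice, and with limma voom C4b was at -0.0048. The number of all tested genes called changed with the settings: right against naive it was 3 with DESeq2 and 1 with the 2 compared groups alone, left against naive 9 and 7, and between mice 31 with DESeq2 and 5 without filter. Leaving out one library gave 0 to 2 genes right against naive, 0 to 2 left against naive and 0 to 286 right against left, where 159 genes were called without right 2 and 286 without mouse 2, and 0 to 6 between mice. The cause was not tested.

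With the replicate block 1 gene was called right against naive, 1 left against naive, 1 between mice and 0 right against left, where C1qc was at 0.30 and C4b at 0.87 (edgeR adjusted p = 0.705 for both), and C4b between mice was at -0.0018. With the block and the 2 compared groups together, an alternative chosen after seeing the data, C1qc was at 0.30 and C4b at 0.86 (edgeR adjusted p = 0.821 for both). The astrocyte sum without Slc1a2 was also chosen after seeing the data.

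Leaving out one library or mouse, values that changed sign ranged as follows on the log2 scale. Between mice C1qa ran from -0.084 to 0.069, C1qc from -0.060 to 0.036, C3 from -0.38 to 0.0080 and C4b from -0.18 to 0.12. Right against naive C1qa ran from -0.015 to 0.22, C1qb from -0.11 to 0.038 and C3 from -0.30 to 0.086. Right against left C3ar1 ran from -0.072 to 0.22, and left against naive C5ar1 from -0.065 to 0.53. Depth limits C3, C3ar1 and C5ar1, which were counted at most 45 times in a library.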

Other observations

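The low-count genes had their own most alike genes, given as descriptions over 12 libraries that share tissue and preparation. C3 was most alike to Magohb, a part of the exon junction complex (r = 0.859, and 0.851 without naive 1 and left 4). Tmem17 (0.838) and Adh5 (0.828) followed, but without these libraries they were at 0.466 and 0.508. C3ar1 was most alike to Ly6a, a gene of endothelial and other surfaces (0.882, and 0.914 without right 1 and left 4). Smim11 followed (0.879, and 0.768 without these libraries). C5ar1 was most alike to 2900076A07Rik (0.873, and 0.625 without naive 3 and naive 1), on counts of 2 to 16. Aass (0.867) and Banf1 (0.846) followed, and without these libraries they were at 0.504 and 0.492. Between C3ar1 and C4b r was -0.208, the lowest of all pairs of the 7 genes.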
